A study of Rattus norvegicus with 72 samples.

Results

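Hypothalamus RNA of newborn rats labelled for the maternal parent of origin was compared between postnatal day 2 (P2) and postnatal day 9 (P9). The comparison takes every hypothalamus RNA library with that label, 12 of the 72 libraries of the series, in 4 groups of 3: WT at P2, deletion at P2, WT at P9 and deletion at P9. All pups were labelled female Rattus norvegicus. The groups called deletion here are labelled as carrying a maternally derived deletion of Ube3a, the gene of an E3 ubiquitin ligase that neurons express mainly from the maternal copy. WT groups are described as litter-matched controls and have the same parental label. Each age thus had 6 libraries, and genotype was a term of the model. The labels do not say how many litters or animals gave these libraries, so p-values measure the spread between libraries, part of which may be technical.

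The first postnatal weeks are the time when the rodent hypothalamus turns from laying down connections to using them. Newborn neurons extend axons with the help of guidance receptors and of polysialic acid, a sugar polymer on the adhesion molecule NCAM that keeps membranes apart. As circuits settle, astrocytes mature, oligodendrocytes begin to wrap axons, microglia spread, and synapses gain the release proteins, receptor subunits and channels of older neurons.

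Library totals ran from 269469 to 599865 counts at P2 (median 352913) and from 218288 to 531265 at P9 (median 278210.5). These are shallow libraries, and the low-count filter kept 3696 of the 184444 rows of the table. Rows are RefSeq accessions of species other than rat, and gene names were given only to accessions known with certainty, mouse ones in mouse spelling (Gfap) and human ones in capitals (ROBO1). Many rows held no count at all. Of 316 rows named here, 96 were listed at 0 in all 24 hypothalamus libraries, among them Actb, which every cell uses, and Mbp, the main myelin basic protein gene. A row listed at 0 therefore does not show that its gene was silent. Of the 945 rows called below, 184 had library counts within 10% of those of another called row, so rows are not a count of genes.

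The labels were checked on rows with known behaviour. The row of Ube3a, the targeted gene, had at P2 a mean of 55.2 ± 25.2 CPM with the WT label and 51.5 ± 19.1 CPM with the deletion label. At P9 these means were 40.4 ± 10.8 and 37.1 ± 13.2 CPM. Errors are SD over 3 libraries (n = 3), and CPM is the usual scaling of counts to a common library size, here adjusted by TMM. The genotypes overlapped in this row at both ages. With the paternal label the same row did separate them, at 36 to 48 counts in WT against 6 to 10 in deletion libraries at P2, and 28 to 56 against 1 to 7 at P9. The Ube3a row thus goes against the labels of the maternal-label libraries, and both their genotype and their parental label are in doubt. Which of these labels is at fault was not tested. Every statement on genotype or parental label in this report is about libraries as labelled. Its change with age was -0.46 (SE 0.27, adjusted p = 0.222) on the log2 scale. Xist, the RNA that coats the inactive X chromosome of females, had 775 to 5432 counts in 11 libraries and 9 counts in the P9 library labelled WT replicate 3. The Y-linked rows Ddx3y and Kdm5d were at 0 in all 12 libraries. Sim1, a transcription factor of the paraventricular nucleus, had 45, 13 and 19 counts in the WT libraries and 14, 84 and 8 in the deletion libraries at P2, and 16, 10 and 0 counts in the WT libraries and 0, 7 and 10 in the deletion libraries at P9. Most peptide rows of the hypothalamus could not serve as a check: of 17, 11 held no count in the 12 libraries, Pomc and Npy included. The count of called rows was repeated without these libraries.

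Between P2 and P9, 521 rows rose and 424 fell of 3696 tested, where a call is an adjusted p under 0.05 (edgeR, quasi-likelihood, Benjamini-Hochberg over all tested rows). That is 25.6% of tested rows called, 14.1% higher and 11.5% lower at P9. The median log2 fold change was 0.82 among risers and -0.73 among fallers, against -0.02 over all tested rows. At least 2-fold differences were found in 176 rising and 88 falling rows, and at least 4-fold ones in 19 and 4. The 6 P9 libraries lay wholly above the 6 P2 libraries in 229 of the risers and wholly below in 126 of the fallers. Over all tested rows, 6.28% were wholly above and 3.46% wholly below. Without both P9 libraries that lacked Sim1 counts, 746 rows were called. Without the P2 library highest in striatal rows and the P9 library low in Xist, 705 were called, and without that P9 library alone 839; both paired settings were chosen after seeing the data.

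Glial genes were among the strongest risers. Mobp (NM_008614), a protein of compact myelin, had 0, 0 and 4 counts in the WT libraries and 0, 0 and 0 in the deletion libraries at P2, and 417, 51 and 8 counts in the WT libraries and 18, 86 and 15 in the deletion libraries at P9. All P9 libraries exceeded all P2 libraries, but they spread over a wide range, and a single P2 library held every count of that age. The fitted log2 fold change was 6.98 (SE 1.26, adjusted p = 0.00362). It missed the threshold when that P2 library, WT replicate 3, was left out (adjusted p up to 0.106 over all alternatives). Enpp6, a choline phosphodiesterase that marks newly forming oligodendrocytes, ran at 6.57 to 32.1 CPM at P2 (median 13.7) and 49.4 to 194 CPM at P9 (median 73.1). Tppp, a tubulin-binding protein of oligodendrocyte processes, ran at 253 to 325 CPM at P2 (median 285) and 946 to 1643 CPM at P9 (median 1514). The 6 libraries of each age formed tight and separate sets, and Tppp had the lowest adjusted p of all rows, with a log2 fold change of 2.29 (SE 0.14, adjusted p = 2.52e-10).

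The oligodendrocyte and myelin list had 16 rows, of which 7 held no count in the 12 libraries, 5 passed the filter, 3 rose and 0 fell. Beside Mobp these were Olig2, a lineage transcription factor, at 0.73, and Cspg4, the NG2 proteoglycan of precursors, at 1.13. Olig2 and Cspg4 were past the threshold in 16 of 23 and 12 of 22 alternative fits. Olig1 stood at 0.49 (adjusted p = 0.0815) and Mog, a late myelin surface protein, at -0.07 (adjusted p = 0.881). The median of the 5 was 0.73, against -0.02 over all rows. Summed, the 16 rows ran from 208 to 523 CPM of all counts at P2 and from 382 to 1380 at P9. The ages overlapped in this sum, and its highest P9 value was that of WT replicate 1, with 652 next.

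Astrocyte rows moved together. Of 10, 6 passed the filter, 5 rose and 0 fell, with a median log2 fold change of 1.21. Their summed level ran from 2200 to 3690 CPM of all counts at P2 and from 4030 to 6950 at P9. Gfap, the intermediate filament of astrocytes, ran at 102 to 169 CPM at P2 (median 115) and 347 to 783 CPM at P9 (median 476). No P9 library came within the P2 range, and the log2 fold change was 2.0 (SE 0.2, adjusted p = 2.61e-06). S100b, a calcium-binding protein of mature astrocytes, stood at 248 to 422 CPM at P2 (median 289) and 746 to 1480 CPM at P9 (median 901), again without overlap. Its log2 fold change was 1.66 (SE 0.18, adjusted p = 2.61e-06). Glul, the glutamine synthetase that detoxifies glutamate, rose by 1.34 (SE 0.13, adjusted p = 2.8e-07). Slc1a3, a glutamate transporter present already in radial glia, rose by 0.56 (SE 0.14, adjusted p = 0.00697). Slc6a11, a GABA transporter, was at 0.52 (adjusted p = 0.194) and missed the threshold. The defining rows Aqp4 and Slc1a2 were listed at 0 and give no information.

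Further glial rows rose as well. Kcnj10, the inward rectifier that clears potassium, was at 1.5, and Ntrk2, the BDNF receptor gene that astrocytes express in truncated form, at 0.83. Dio2, the deiodinase that makes active thyroid hormone, was at 1.66; these 3 were picked after their values were seen. Chil1, a secreted chitinase-like protein, had a single count in each P2 library and 2 to 25 counts at P9, for a log2 fold change of 3.59 (SE 0.48, adjusted p = 1.57e-05). Lix1 rose from 37.3 ± 9.32 to 152 ± 49.8 CPM (SD, n = 6 each), a log2 fold change of 2.03.

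**Figure D1:**
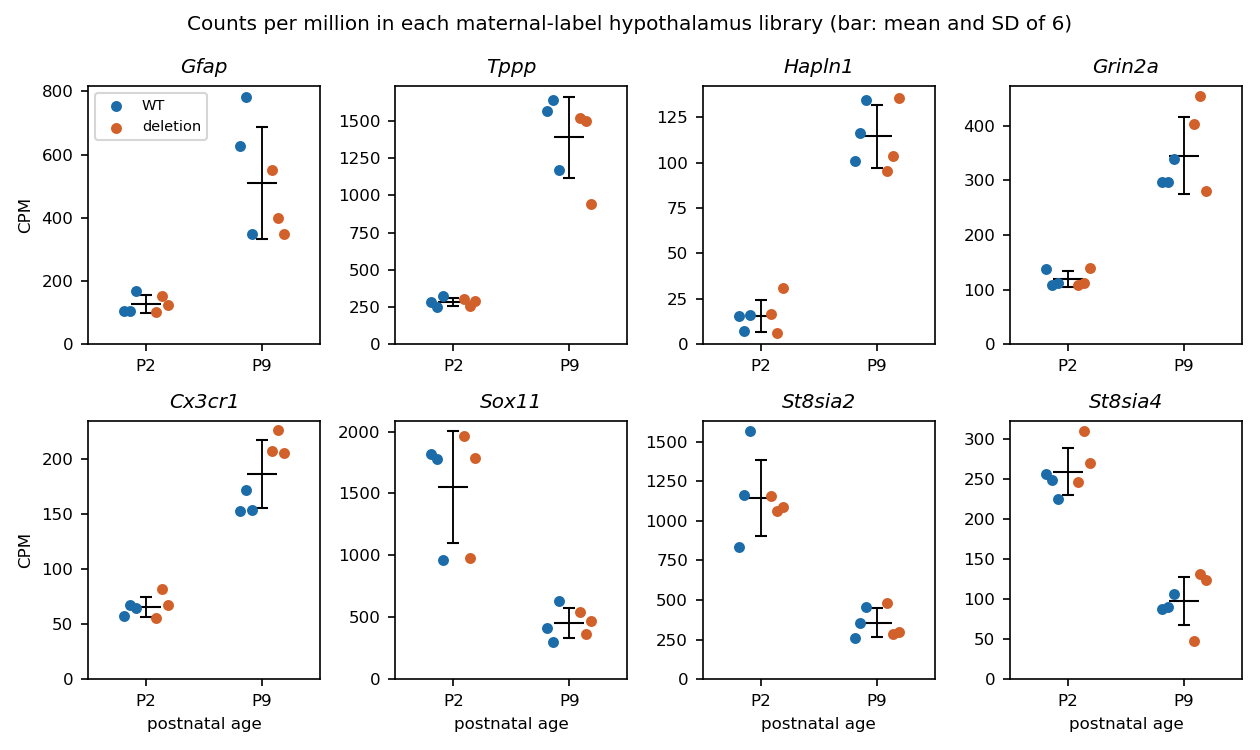
CPM (linear axis) of 8 rows in each of the 12 libraries at P2 and P9, blue for WT and orange for deletion, with the mean and SD of the 6 libraries of an age in black. For all 8 rows the P2 and P9 libraries do not overlap, with Gfap, Tppp, Hapln1, Grin2a and Cx3cr1 higher and Sox11, St8sia2 and St8sia4 lower at P9.

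Few microglial rows could be tested. Of 6 microglia rows only Cx3cr1, the fractalkine receptor, passed the filter, and the complement rows C1qa, C1qb and C1qc held at most 3 counts in any library. Cx3cr1 ran at 55.8 to 81.5 CPM at P2 (median 65.6) and 153 to 226 CPM at P9 (median 189), without overlap, and rose by 1.49 (SE 0.15, adjusted p = 6.2e-07). Its ligand Cx3cl1, made by neurons, rose from 330.1 ± 63.9 to 1004 ± 119.7 CPM (SD, n = 6 each), a log2 fold change of 1.61 (SE 0.13, adjusted p = 5.76e-08). Selplg, a selectin ligand used as a marker of resting microglia, had 10, 0 and 1 counts in the WT libraries and 0, 4 and 5 in the deletion libraries at P2, and 25, 7 and 14 counts in the WT libraries and 15, 17 and 15 in the deletion libraries at P9. Its log2 fold change was 2.65 (SE 0.42, adjusted p = 8.33e-05). Mpeg1, a macrophage perforin, rose by 0.76 (adjusted p = 0.00712). The summed microglia rows ran from 69.4 to 109 CPM at P2, here and in other sums scaled to all counts of the library, and from 161 to 223 at P9. Most of this sum was Cx3cr1 itself, so it adds little to that row. In bulk tissue, more cells of a type and more RNA per cell cannot be told apart.

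The upstream sequences of 4 genes that changed strongly are shown as context, 2 that fell (Sox11 and St8sia2, described below) and 2 glial ones that rose (Gfap and Mobp). Each is the 250 bases before the annotated start in RefSeq's rat annotation, build GRCr8, written 5′ to 3′ with CG dinucleotides, the sites of DNA methylation, in capitals. Positions are chr6:49738795-49739044 (minus strand) for Sox11, chr1:137247754-137248003 (minus strand) for St8sia2, chr10:88361662-88361911 (minus strand) for Gfap and chr8:128746982-128747231 (plus strand) for Mobp.
Sox11: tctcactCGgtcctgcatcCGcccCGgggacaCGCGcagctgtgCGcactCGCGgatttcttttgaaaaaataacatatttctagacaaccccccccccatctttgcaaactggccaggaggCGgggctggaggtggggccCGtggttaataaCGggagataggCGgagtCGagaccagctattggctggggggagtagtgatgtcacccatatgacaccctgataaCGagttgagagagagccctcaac
St8sia2: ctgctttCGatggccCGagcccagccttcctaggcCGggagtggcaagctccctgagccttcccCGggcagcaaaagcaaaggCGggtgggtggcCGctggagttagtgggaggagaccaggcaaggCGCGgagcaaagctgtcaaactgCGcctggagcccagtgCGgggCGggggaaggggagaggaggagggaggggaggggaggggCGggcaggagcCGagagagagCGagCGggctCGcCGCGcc
Gfap: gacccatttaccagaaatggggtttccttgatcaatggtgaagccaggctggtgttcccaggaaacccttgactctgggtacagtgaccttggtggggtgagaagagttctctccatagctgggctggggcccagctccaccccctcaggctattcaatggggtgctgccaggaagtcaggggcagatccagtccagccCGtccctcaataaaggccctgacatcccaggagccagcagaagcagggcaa
Mobp: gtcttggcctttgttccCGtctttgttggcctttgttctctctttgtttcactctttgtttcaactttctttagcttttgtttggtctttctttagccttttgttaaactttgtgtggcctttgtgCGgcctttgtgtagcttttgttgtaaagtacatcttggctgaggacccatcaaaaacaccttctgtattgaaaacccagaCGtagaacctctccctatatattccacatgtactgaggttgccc
The Sox11 stretch holds 14 CG and the St8sia2 stretch 18, against 3 for Mobp and 1 for Gfap. Of 33469 rat promoters of this length, 27.6% hold at least 14 CG, 20.1% at least 18, 71.4% at least 3 and 92.2% at least 1. Over all named rows that were called, CG counts did not part by direction: the median was 12.5 for 48 risers and 14 for 26 fallers with a promoter in the table. Both lay above the median of 5 over all 33469 promoters.

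Most synaptic release rows that passed the filter rose. In a list chosen after seeing the data, 7 of 18 rows passed the filter, 6 rose and 1 fell. Cplx2, a complexin that clamps the fusion machinery, stood at 948 to 1354 CPM at P2 (median 1241) and 2501 to 3723 CPM at P9 (median 2970). Every P9 library was above every P2 library, and the log2 fold change was 1.35 (SE 0.13, adjusted p = 2.8e-07). Cplx1 rose by 1.31 (SE 0.15, adjusted p = 2.74e-06). The vesicle protein synaptophysin (Syp) rose by 0.7 (adjusted p = 0.000526), the vesicle glycoprotein Sv2a by 0.65 (adjusted p = 0.0139) and the active-zone scaffold Bsn by 0.57 (adjusted p = 0.00542). Syt4, a synaptotagmin of dense-core vesicles that does not bind calcium as its relatives do, went the other way, from 624 ± 43.4 to 408 ± 48.4 CPM (SD, n = 6 each). Syt4 fell by 0.62 on the log2 scale (adjusted p = 0.000387) and its P9 libraries all lay below its P2 libraries.

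Among receptors, NMDA receptor subunits moved unequally. NMDA receptors of newborn neurons carry mainly the subunit of Grin2b, and older forebrain synapses add that of Grin2a. Grin2a ran at 108 to 139 CPM at P2 (median 112) and 279.7 to 455 CPM at P9 (median 318), without overlap, and rose by 1.51 (SE 0.15, adjusted p = 2.8e-07). Grin2c, a subunit found in glia and some interneurons, had 5, 0 and 1 counts in the WT libraries and 0, 1 and 3 in the deletion libraries at P2, and 26, 12 and 7 counts in the WT libraries and 12, 12 and 11 in the deletion libraries at P9, a log2 fold change of 3.33 (SE 0.46, adjusted p = 2.03e-05). For Grin2b the mouse row gave 0.08 (adjusted p = 0.76) and the human row 0.3 (adjusted p = 0.175), neither past the threshold. The 95% interval of the mouse row, -0.24 to 0.4, lies below that of Grin2a (1.21 to 1.81).

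In the synaptic receptor and transmitter list, 7 of 21 rows passed the filter, 3 rose and 0 fell. Beside Grin2a, Gad2, a GABA-synthesizing enzyme, rose by 0.83 (adjusted p = 0.00265). Slc17a6, the vesicular glutamate transporter of hypothalamic glutamate neurons, was at -0.91 (adjusted p = 0.186) and did not pass. The list's median was 0.08. Outside it, the kainate receptor row GRIK1 fell from 89.6 ± 27.2 to 41.2 ± 18.4 CPM (SD, n = 6 each), and the GABA-B receptor row GABBR2 rose by 0.76 (adjusted p = 0.0147).

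Potassium channel rows rose. Of 7 potassium channel rows, 5 passed the filter, 4 rose and 0 fell, with a median of 0.96. Kcna1, a Kv1 channel of axons, stood at 16.4 to 24.9 CPM at P2 (median 21.4) and 47.3 to 91.7 CPM at P9 (median 80.6), and rose by 1.82 (SE 0.24, adjusted p = 1.24e-05) with no overlap. Kcna2, its usual partner, rose by 0.96 (SE 0.15, adjusted p = 5.75e-05). Kcnj4 is described with the striatal rows. Scn4b, a sodium channel beta subunit, rose from 6.92 ± 4.83 to 57.1 ± 38.6 CPM (SD, n = 6 each). Picked after their values were seen, the M-current subunit KCNQ3 rose by 0.89 (adjusted p = 0.00297), and FGF13, which binds sodium channels from inside the cell, by 1.85 (adjusted p = 1.94e-05).

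Several signalling rows of neurons rose beside them, of which Lynx1, KLF9 and Adcy1 came from the naming rule and the others were picked after their values were seen. Thy1, a surface glycoprotein of mature axons, ran at 194 to 654 CPM at P2 (median 298) and 917 to 1402 CPM at P9 (median 1133). Its libraries did not overlap, although P2 WT replicate 3 stood apart above the other P2 libraries. Lynx1, a brake on nicotinic receptors that is tied to the end of plasticity, ran at 212 to 542 CPM at P2 (median 264) and 962 to 1699 CPM at P9 (median 1248), also without overlap, with a log2 fold change of 2.06 (SE 0.21, adjusted p = 6.1e-06). KLF9, a transcription factor induced by thyroid hormone and glucocorticoid, rose by 2.06 (SE 0.25, adjusted p = 2.27e-05). Camk4, a calcium-dependent kinase of the nucleus, rose by 0.69 (adjusted p = 0.000419). Adcy1, a calcium-stimulated adenylyl cyclase and one of the most abundant risers, was at 0.59 (adjusted p = 0.0331), past the threshold in 11 of 23 alternative fits. Rgs4 and Nptx1, a brake on G-protein signalling and a pentraxin that gathers AMPA receptors, rose by 1.23 and 1.22. Cry2, a clock repressor, rose by 0.67 (adjusted p = 0.00239), and the mitochondrial superoxide dismutase Sod2 by 1.46 (adjusted p = 9.7e-06).

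The enzymes that build polysialic acid fell, while the matrix rows Hapln1 and Tnr rose. St8sia2, the main polysialyltransferase of the embryonic brain, stood at 831 to 1566 CPM at P2 (median 1123) and 262 to 483 CPM at P9 (median 329). St8sia4, the second enzyme, stood at 225 to 309.9 CPM at P2 (median 253) and 47.8 to 131 CPM at P9 (median 98.5). For both, every P9 library was below every P2 library. The log2 fold changes were -1.7 (SE 0.17, adjusted p = 6.54e-07) for St8sia2 and -1.39 (SE 0.17, adjusted p = 5.15e-06) for St8sia4. Ncam1, whose protein carries the polymer, went up by 1.02 (adjusted p = 0.00267) with overlapping libraries. Hapln1, a link protein of perineuronal nets, ran at 6.12 to 30.9 CPM at P2 (median 15.8) and 95.6 to 136 CPM at P9 (median 110), without overlap, and rose by 2.86 (SE 0.28, adjusted p = 2.8e-07). Tnr, a tenascin of the mature matrix, rose by 1.0 (adjusted p = 0.000819), whereas Tnc, the tenascin of the immature matrix, fell from 32 ± 12.7 to 10.7 ± 6.54 CPM (SD, n = 6 each). Sdc3, a syndecan of growing axons and among the most abundant fallers, changed by -0.46 (adjusted p = 0.0141), and Ncan, a chondroitin sulphate proteoglycan, by 0.12 (adjusted p = 0.486), which did not pass. In this list, chosen after seeing the data, 8 of 12 rows passed the filter, 3 rose and 4 fell.

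Genes of young neurons and progenitors were lower at P9. Sox11, a transcription factor of newborn neurons, ran at 964 to 1963 CPM at P2 (median 1783) and 301 to 632 CPM at P9 (median 443). At P2, WT replicate 3 and deletion replicate 2 stood well below the other 4 libraries, and all 6 were above every P9 library. The log2 fold change was -1.78 (SE 0.22, adjusted p = 5.75e-05). Its relative Sox4 fell from 59.2 ± 14.8 to 28.2 ± 14.2 CPM (SD, n = 6 each), with a log2 fold change of -1.19 (SE 0.3, adjusted p = 0.00628). Nes, the filament of progenitors, fell by 0.71 on the log2 scale, but was past the threshold in 7 of 23 alternative fits. Of 12 immature neuron and axon growth rows, 4 passed the filter, 0 rose and these 3 fell, and Marcks, an actin regulator of growth cones, was at -0.17 (adjusted p = 0.367).

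Other regulators fell too. Hunk, a kinase, fell from 101 ± 21.2 to 41.8 ± 14.6 CPM (SD, n = 6 each) without overlap. The next rows, Eid1 aside, were picked after their values were seen. Pou3f2, a POU factor needed for hypothalamic neurosecretory neurons, fell by 1.26 on the log2 scale (adjusted p = 0.000441). ID4, an inhibitor of neural differentiation factors, fell by 1.05, the RNA-binding protein of progenitors MSI1 by 0.41, the splicing regulator Nova1 by 0.87 and Eid1, an inhibitor of histone acetylation, by 0.58. Igfbpl1, a marker of newborn neurons, fell by 1.4 (past the threshold in 16 of 23 alternative fits), and the nuclear receptor NR2F1 by 0.67 (13 of 23).

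Cell-cycle rows gave no call in the main fit. Of 26, only 3 passed the filter, 0 rose and 0 fell. When all 24 hypothalamus libraries were in the fit, 7 were tested, 0 rose and 2 fell. Leaving out P2 WT replicate 3, P9 WT replicate 3, or P2 WT replicate 1 together with P9 WT replicate 3, gave 1 faller of 4 tested. With no filter on low counts 17 were tested and 0 were called. Mki67, the proliferation antigen, stood at 325 to 491 CPM at P2 (median 412) and 189 to 462 CPM at P9 (median 287), and its log2 fold change was -0.38 (SE 0.17, adjusted p = 0.101). It passed the threshold in 3 of 23 alternative fits, with a log2 fold change from -0.53 to -0.26. Ccnd1, a cyclin of early G1, was at 0.6 (adjusted p = 0.0914). Of 8 immediate early rows only Jun passed the filter, and it fell by 1.02 (adjusted p = 0.0206). Jun does not stand for the list. With all 24 hypothalamus libraries in the fit, 2 rows were tested, of which 1 rose and 1 fell. With no filter on low counts, 1 rose and 0 fell. Summed, the 8 rows ran from 28.4 to 55 CPM of all counts at P2 and from 15.1 to 66.5 at P9.

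Axon guidance and adhesion rows fell more often than they rose. In this list, chosen after seeing the data, 17 of 30 rows passed the filter, 1 rose and 10 fell, with a median of -0.44. Their summed level ran from 8450 to 11100 CPM of all counts at P2 and from 6220 to 7260 at P9. ROBO1, a Slit receptor, had 29, 11 and 6 counts in the WT libraries and 10, 13 and 36 in the deletion libraries at P2, and 12, 2 and 5 counts in the WT libraries and 0, 2 and 4 in the deletion libraries at P9. Its P9 libraries all lay just below its P2 libraries, and it changed by -1.65 (SE 0.45, adjusted p = 0.0102). The semaphorin receptor PLXNC1 fell by 1.29, and Cd24a, a surface glycoprotein of young neurons, by 1.27. The smaller but tighter fallers were abundant rows. Chl1, an adhesion molecule of the L1 family, fell from 2137 ± 160.5 to 1441 ± 129.6 CPM, and Dpysl2, a growth-cone protein that carries the semaphorin signal to microtubules, from 2351 ± 120 to 1737 ± 142 CPM (SD, n = 6 each). Neither overlapped between ages. Cdh4, a cadherin, fell by 0.6, Map1b, a microtubule protein of growing axons, by 0.47, the netrin receptor Dcc by 0.56, Cntn2 by 0.5 and the actin bundler Fscn1 by 0.34. Cd24a, Dcc, Cntn2 and Fscn1 were past the threshold in 10 of 23, 9 of 23, 11 of 23 and 8 of 23 alternative fits. Sema5a, a semaphorin, was the row that rose, by 0.52 (adjusted p = 0.0105). Without P2 WT replicate 1 and the P9 library low in Xist, 5 rows of this list fell and 1 rose. Leaving out 1 library gave 6 to 10 fallers, 8 of them when it was the P9 library low in Xist. With all libraries, limma-voom gave 7. The count of this list thus varied between fits. What part particular libraries have in this was not tested.

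**Figure D2:**
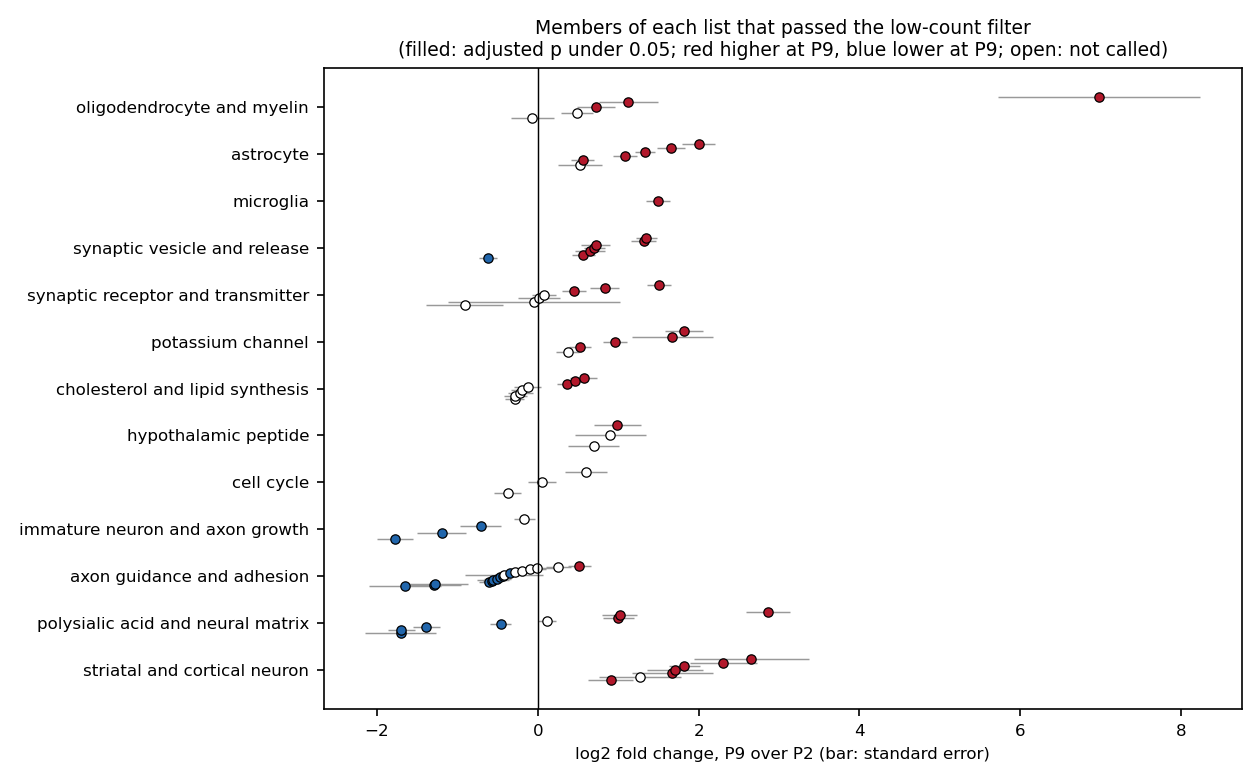
Log2 fold change from P2 to P9 with its standard error for each list member that passed the low-count filter, filled where the adjusted p was under 0.05 (red higher, blue lower at P9) and open where it was not. Astrocyte, potassium channel and striatal rows lie to the right of 0 throughout, immature neuron rows to the left, and the polysialic acid and neural matrix rows on both sides. Mobp lies at 6.98.

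Lipid rows gave 3 calls, while the median row of the list did not rise. Of 13 cholesterol and lipid synthesis rows, 8 passed the filter, 3 rose and 0 fell, with a median of -0.17 against -0.02 over all rows. Over all tested rows, 14.1% were called higher and 11.5% lower at P9. The summed level of the 13 rows ran from 6040 to 8000 CPM of all counts at P2 (median 6960). At P9 it ran from 7060 to 9680 (median 7930), overlapping the P2 range. The fatty-acid desaturase Scd2, one of the most abundant risers, went from 4800 ± 432 to 6605 ± 708 CPM (SD, n = 6 each) without overlap, a log2 fold change of 0.46 (SE 0.11, adjusted p = 0.00312). Scd1, another desaturase, rose by 0.57 (adjusted p = 0.0141). Fut9, the enzyme that makes the Lewis X sugar, rose by 0.36 (adjusted p = 0.0167), and the secreted protease inhibitor Cst3 by 0.73 (adjusted p = 0.000348).

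Peptide rows were thin. Of 17, 3 passed the filter, 1 rose and 0 fell. Chgb, a granin of secretory vesicles, stood at 12.5 to 40.1 CPM at P2 (median 34.4) and 41.6 to 85 CPM at P9 (median 52.4), and rose by 0.99 (adjusted p = 0.0161), past the threshold in 18 of 23 alternative fits. Chga, its relative, was at 0.7 (adjusted p = 0.11) and Trh, the thyrotropin-releasing hormone, at 0.9 (adjusted p = 0.146). Pcsk2, a convertase that cuts peptide precursors and was picked after its values were seen, rose by 1.16 (adjusted p = 0.000951). Cxcl14, a chemokine of interneurons, rose by 1.93 (adjusted p = 0.000703), and Crym, a cytosolic binder of thyroid hormone, by 1.49 (adjusted p = 0.00327). Among lists for other cells of the dissection, 1 of 7 vascular rows and 1 of 4 choroid plexus and ependyma rows passed the filter with no call, and 4 pituitary and 2 blood rows held no count.

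Rows typical of striatal and cortical neurons also rose, in a list chosen after seeing the data. Of 21, 7 passed the filter, 6 rose and 0 fell. Ppp1r1b, the DARPP-32 protein of striatal projection neurons, had 27, 11 and 0 counts in the WT libraries and 14, 0 and 16 in the deletion libraries at P2, and 61, 4 and 78 counts in the WT libraries and 36, 92 and 48 in the deletion libraries at P9. It ranged widely at both ages, and its log2 fold change of 2.66 (SE 0.72, adjusted p = 0.0229) was past the threshold in 18 of 23 alternative fits. Rasd2, a striatal G protein, stood at 114 to 185 CPM at P2 (median 143) and 363 to 721 CPM at P9 (median 442), without overlap, and rose by 1.82 (SE 0.19, adjusted p = 2.32e-06). Nrgn, a calmodulin-binding protein of forebrain neurons, rose by 2.31 (SE 0.42, adjusted p = 0.000363) and the muscarinic receptor Chrm4 by 1.7 (SE 0.35, adjusted p = 0.00128). Kcnj4 rose by 1.67 (adjusted p = 0.0227) and Pde10a, a striatal phosphodiesterase, by 0.91 (adjusted p = 0.0215).

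Rows of 7 hypothalamic transcription factors were set beside them. The main fit tested 1 of these, which was not called. With no filter on low counts 5 were tested, 0 rose and 1 fell. Without P2 deletion replicate 3, the 1 row tested fell. Summed, the 21 striatal and cortical rows ran from 260 to 530 CPM of all counts at P2 (median 440) and from 542 to 1710 at P9 (median 1110). The 7 hypothalamic regulator rows, Sim1, Otp, Six6, Six3, Nkx2-1, Nr5a1 and Lhx9, ran from 29.8 to 233 at P2 (median 86.3) and from 4.58 to 55.4 at P9 (median 35.2). Sim1 alone passed the filter, at -1.6 (SE 0.66, adjusted p = 0.102). With the paternal label the striatal rows ran from 212 to 538 at P2 and from 236 to 455 at P9, and the regulator rows from 64.9 to 465 and from 62.6 to 310. Of the defining striatal rows, Drd2 was listed at 0 and Drd1 had at most 3 counts in a library. Without both P9 libraries that lacked Sim1 counts, 3 striatal rows rose in place of 6. Whether the tissue taken differed between ages, and what part this has in the other age differences, was not tested.

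**Figure D3:**
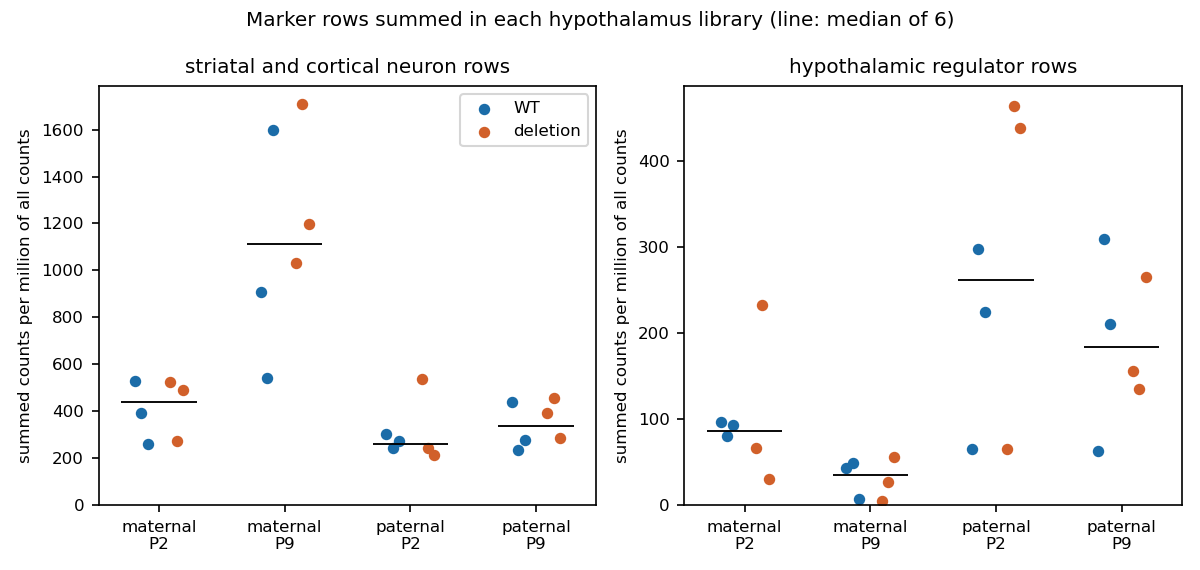
Summed level (CPM of all counts) of the 21 striatal and cortical neuron rows (left) and the 7 hypothalamic regulator rows (right) in each of 24 hypothalamus libraries, by parental label and age, blue for WT and orange for deletion, with the median of 6 as a line. With the maternal label the striatal sums at P9 (542 to 1710) lie above those at P2 (260 to 530), and with the paternal label the ages overlap in both lists.

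Noncoding rows fell more than they rose. Of 228 tested accessions starting with NR_, 12 rose and 56 fell, which is 2.3% of all risers and 13.2% of all fallers, where NR_ rows made up 6.17% of tested rows. In the libraries, NR_ rows other than the most abundant row took 5.15% to 7.72% of counts at P2 and 4.61% to 5.74% at P9. The most abundant row itself, NR_137294, took 9.33% to 18.1% at P2 and 15.3% to 19.4% at P9. Leaving that row out of the library sizes gave 941 calls in place of 945. Kcnq1ot1, a long antisense RNA of an imprinted domain, went from 1596 ± 154 to 999 ± 91.6 CPM (SD, n = 6 each) without overlap, a log2 fold change of -0.67 (SE 0.11, adjusted p = 0.000122). Whether counting used strand is not given, so reads of Kcnq1ot1 and of the gene it lies in cannot be told apart. Xist changed by -0.9 (SE 0.68, adjusted p = 0.378) with all libraries, and by -0.61 (adjusted p = 0.00644) without the P9 library that had 9 Xist counts.

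Among the 15 largest changes in each direction with no overlap, several rows could not be named. NM_001146318 went from 10.8 ± 5.18 to 96.2 ± 51.4 CPM and NM_001099328 from 8.05 ± 4.07 to 45.4 ± 16 CPM, and both rose. NM_027915 fell from 91 ± 38.2 to 3.61 ± 4.6 CPM and NR_033813 from 57.2 ± 26 to 9.46 ± 7.09 CPM (SD, n = 6 each). NM_027915 had the largest fall of these rows, with a log2 fold change of -4.55 (SE 0.46, adjusted p = 6.54e-07). Rows of the same gene from different species moved in the same direction: Pura, which binds purine-rich DNA and RNA, rose by 1.08 in the mouse row and 0.95 in the human row, and the ubiquitin ligase Ttc3 fell by 0.59 and 1.33.

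The age change was also taken within each genotype label, which the Ube3a row did not separate. With 1 mean per group, 251 rows were called in WT (6.79% of tested rows, 170 or 4.6% higher and 81 or 2.19% lower) and 333 in deletion libraries (9.01%, 215 or 5.82% higher and 118 or 3.19% lower). These contrasts share no library. They had 153 rows in common, 61% of the WT calls and 45.9% of the deletion calls, all of them in the same direction, and 250 of the 251 WT calls had the same sign in the deletion. The test of the difference itself, deletion minus WT, called 0 of 3696 rows (0%) in edgeR's quasi-likelihood test, with 64 rows at an unadjusted p under 0.05 and 0 calls by DESeq2. The call of 0 does not show that the genotypes aged alike. For Gfap the difference was -0.5 (95% interval -1.33 to 0.34) and for Sox11 -0.03 (-1.02 to 0.97). Nptx1 had the lowest unadjusted p of the named rows, with a difference of 1.38 (0.49 to 2.28, adjusted p = 1). Counts within a genotype depended on single libraries, from 115 to 435 in WT and from 120 to 445 in deletion when a library was left out.

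**Figure D4:**
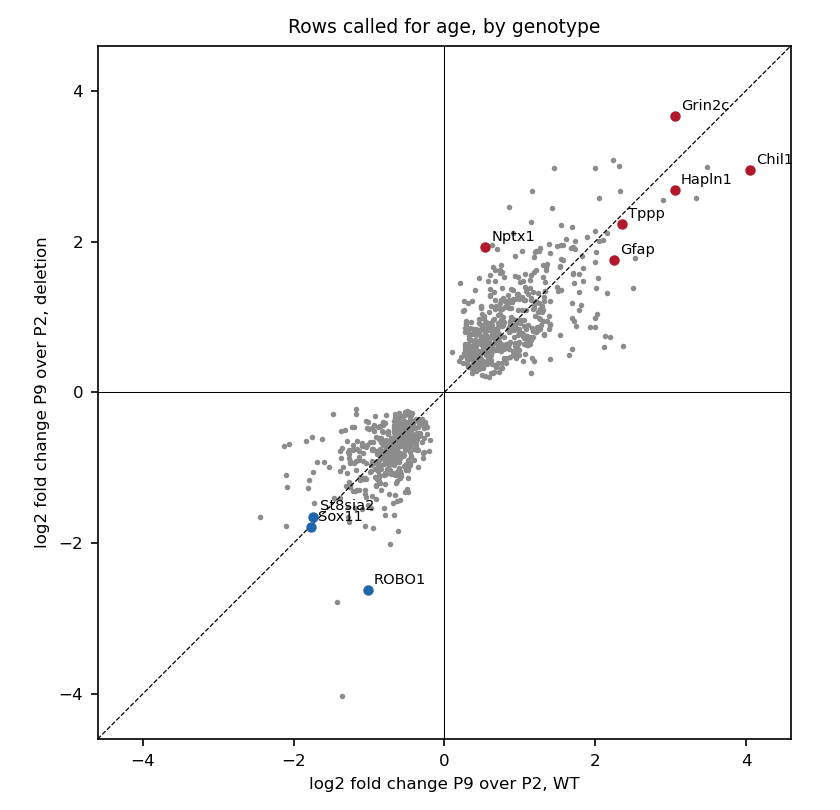
Log2 fold change from P2 to P9 in libraries labelled WT (horizontal) and deletion (vertical) for 943 of the 945 rows called for age over both genotypes, 2 lying outside the axes, with the line of equal change dashed. The rows were chosen on both genotypes together, so their place in the upper right and lower left is set by that choice, and what the plot shows is the scatter around the line. Nptx1 lies above it and Chil1 below.

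The paternal-label hypothalamus, 12 other libraries with 437650 to 1165651 counts, gave 1203 calls of 6511 tested rows (18.5%, 673 or 10.3% higher and 530 or 8.14% lower). The library labelled P2 WT replicate 3 there had 19 Xist and 180 Ddx3y counts against its female label, and without it 871 rows were called. Of the 938 maternal-label calls tested there, 846 had the same sign. In all, 400 rows were called with both labels and 396 of these moved in the same direction, 41.9% of the maternal and 32.9% of the paternal calls. Risers with the maternal label had a median log2 fold change of 0.54 with the paternal label, and fallers -0.36, against -0.01 over all rows. Gfap changed by 2.22 (adjusted p = 0.000178), Tppp by 2.03 (adjusted p = 5e-08), Sox11 by -1.99 (adjusted p = 1.03e-06) and St8sia2 by -1.49 (adjusted p = 0.0031) with the paternal label. Cx3cr1 changed by 1.37 (adjusted p = 2.59e-05) and Enpp6 by 3.85 (adjusted p = 1.37e-05). Of the astrocyte list 6 of 6 tested rows rose there, and of the oligodendrocyte list 4 of 5 rose and 1 fell. Of the synaptic vesicle and release list, where 6 of 7 rows rose with the maternal label, 1 of 7 rose with the paternal label and 0 fell. Its summed level there ran from 2610 to 3480 CPM of all counts at P2 and from 2780 to 5150 at P9, with overlap.

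The difference in age effect between the labels was called for 3 of 5840 rows (0.0514%), 1 (0.0171%) higher and 2 (0.0342%) lower with the maternal label, with 768 rows at an unadjusted p under 0.05. DESeq2 called 47. PURA was the row with a name: it rose by 0.95 with the maternal and 1.81 with the paternal label, a difference of -0.85 (95% interval -1.19 to -0.51, adjusted p = 0.0475). The mouse row of the same gene, Pura, was not among the 3 called rows. Leaving out single libraries ended the PURA call in 17 of 24 fits, and without either library low in Xist 0 rows were called. Some rows stood out by size without passing. FGF13 changed by 1.85 with the maternal and 0.07 with the paternal label, Nrgn by 2.31 and 0.18, Crym by 1.49 and -0.26, and GRIK1 by -1.03 and 0.03. Their adjusted p for the difference ran from 0.18 to 0.333. Of the striatal list, 4 rows were tested with the paternal label and 1 rose.

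**Figure D5:**
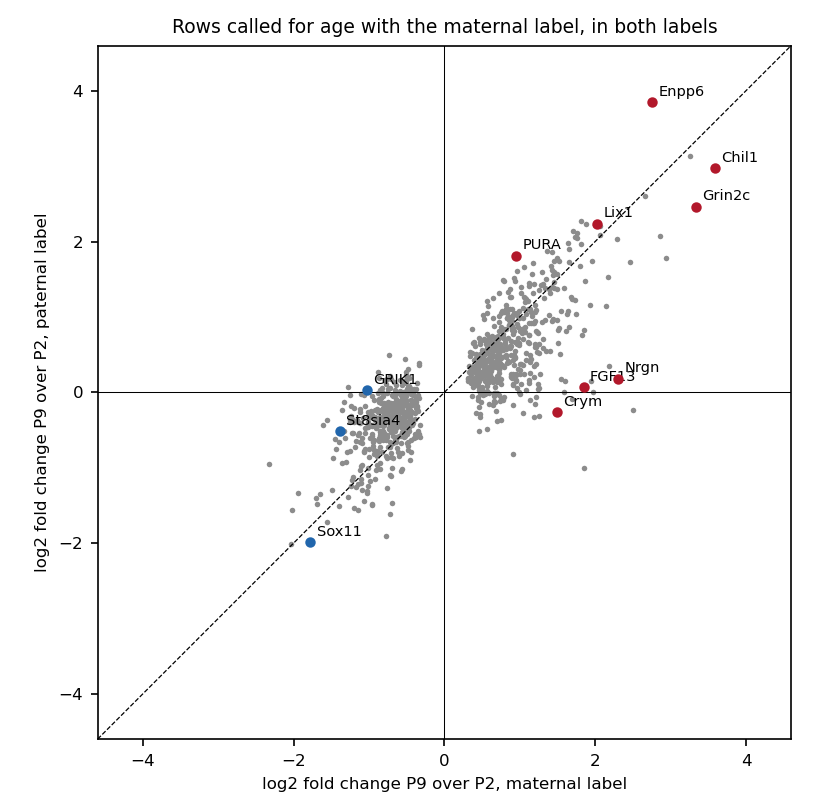
Log2 fold change from P2 to P9 with the maternal label (horizontal) and the paternal label (vertical) for 937 of the 938 rows called with the maternal label and tested with both, 1 lying outside the axes, with the line of equal change dashed. Most rows keep their sign (846 of 938), while FGF13, Crym and Nrgn rose with the maternal label and lie near 0 with the paternal label. The rows were chosen on the horizontal values.

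In cortex with the maternal label, 12 libraries with 1669200 to 2498255 counts, 4082 of 8014 rows were called (50.9%), 25.5% higher and 25.4% lower. Of the 943 hypothalamic calls tested there, 875 had the same sign, and 748 were called in the same direction, 79.2% of the hypothalamic and 18.3% of the cortical calls. The difference in age effect, hypothalamus minus cortex, was called for 406 of 7721 rows (5.26%), 117 (1.52%) higher and 289 (3.74%) lower. Without the P9 hypothalamus library low in Xist it was called for 249. The libraries of the tissues also differed in make-up. The most abundant row of the hypothalamus took 9.33% to 18.1% of counts there at P2 and 15.3% to 19.4% at P9. In the cortex libraries the same row took 0.0002788% to 0.5736%. What part this has in the differences between tissues was not tested. Several neuronal rows rose less in hypothalamus than in cortex. Grin2a rose by 1.51 against 2.69 in cortex, a difference of -1.19 (SE 0.18, adjusted p = 5.05e-05). Lynx1 rose by 2.06 against 3.76, a difference of -1.7 (SE 0.28, adjusted p = 0.00127), and for Syp the difference was -0.77 (SE 0.14, adjusted p = 0.00093). Kcna2, Camk4, Bsn and Cx3cl1 also rose less in hypothalamus, with differences from -0.82 to -0.53. For the channel row Kcnc1, not called in hypothalamus (0.37), the difference was -0.54 (SE 0.16, adjusted p = 0.0385). Lix1 rose more in hypothalamus, by 2.03 against 0.98, a difference of 1.05 (SE 0.27, adjusted p = 0.0216). Syt4, Ttc3, PLXNC1, Sdc3 and Nova1 fell in hypothalamus, with log2 fold changes in cortex between -0.1 and 0.13, and their differences ran from -1.29 to -0.49. Pde10a rose by 0.91 in hypothalamus and changed by -0.66 in cortex.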

How the data were processed

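RNA of hypothalamus was sequenced after rRNA depletion with a directional kit, per the labels' protocols, with STAR and the rn6 (Rnor_6.0) build named in the submitters' processing notes. The deposited table holds raw read counts per RefSeq accession. The sources used here do not name the counting tool or its strand setting. Accessions were named from mouse and human RefSeq accessions known with certainty, and no row matched a rat RefSeq accession.

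Rows were kept by filterByExpr and scaled by TMM, and age was tested with genotype as a term by edgeR 4.0.16 (quasi-likelihood, robust, limma 3.58.1, R 4.3.3), Benjamini-Hochberg adjusted at 0.05. All differences of age effects were terms of such fits. Replicate numbers follow accession order. The biological coefficient of variation was 18.3%, with 9 residual degrees of freedom. Alternatives included DESeq2 1.42.0, other filters, scalings, thinning and left-out libraries. The procedure was tested on simulated data.

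Named rows were members of gene lists, the 15 largest non-overlapping changes per direction and the 5 most abundant called rows per direction. At most 2 unnamed rows per direction are given. The comparison, members and lists were chosen with earlier results of these data known. Genes named outside this rule were picked after their values were seen. Lists stated as chosen after seeing the data were added later. Methylation data were not used here. Some list members are not reported here by name and are included in the counts only.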

Additional observations from a re-analysis of the deposited data

Results flagged for a closer look

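Of 236 groups of 6 libraries examined, 18 held a library whose gap to its nearest neighbour passed Dixon's 95% critical value, where chance gives about 1 in 20. At P2, WT replicate 3 stood apart in 5 rows: it was the highest library for Mobp (16.06 CPM, the other 5 at 0), Cspg4 (48.17 CPM, next 19.7), Glul (337.2 CPM, next 255.3) and Thy1 (654.4 CPM, next 364.9), and the lowest for Kcnq1ot1 (1297 CPM, next 1608). Deletion libraries stood apart at P2 for ROBO1 and Grin2b (replicate 3, 92.82 and 288.8 CPM) and for Sim1 (replicate 2, 171.3 CPM). The same replicate 2 had the highest sum of hypothalamic regulator rows, 233 CPM of all counts. With the paternal label, P2 deletion replicate 1 had the highest striatal sum, 538.1 CPM of all counts.

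At P9, WT replicate 1 was highest for Mobp (826.9 CPM, next 262.8) and lowest for the share of the most abundant row (15.28%). WT replicate 2 was highest for Sv2a (301.1 CPM). WT replicate 3 was highest for Cxcl14 (225.1 CPM) and lowest for Xist (35.53 CPM, next 4078). Deletion replicate 3 was highest for Syt4 (501.8 CPM), Map1b (181 CPM) and NM_027915 (12.34 CPM).

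The age effect differed between parental labels for the human row PURA (-0.8491, maternal minus paternal, on the log2 scale), while the mouse row Pura was not called. The age effect differed between hypothalamus and cortex, by the interaction test in edgeR, for the named rows given next. The log2 difference, hypothalamus minus cortex, was positive for Pde10a (1.579) and Lix1 (1.051). It was negative for the neuronal rows Lynx1 (-1.704), Grin2a (-1.194), Kcna2 (-0.8238), Syp (-0.7671), Camk4 (-0.6329), Bsn (-0.5515), Kcnc1 (-0.5397) and Cx3cl1 (-0.5332). Among rows that fell in hypothalamus it was -1.29 for PLXNC1, -1.107 for Jun, -1.003 for Nova1, -0.5925 for Syt4, -0.5299 for Ttc3 and -0.4919 for Sdc3. For Cyp51, an enzyme of cholesterol synthesis, it was -0.4376.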

How the results depend on the processing

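The count of rows called for age stayed between 697 and 996 over 11 alternatives, 2 of them chosen after seeing the data, and between 726 and 1137 with a library left out, against 945. DESeq2 gave 832. The difference between genotypes stayed at 0 in every fit run. For the difference between labels, 3 rows became 47 with DESeq2, 34 with no filter and 1 after thinning to the lowest total, and 0 to 19 with a library left out; the cause was not tested. For hypothalamus minus cortex, 406 became 141 after thinning, which leaves fewer counts, and 225 to 346 with a library left out. With a library left out, WT calls ranged from 115 to 435 and deletion calls from 120 to 445. Of 97 called genes followed through the alternatives, 74 were past the threshold in every fit, 23 were lost in some and 0 reversed. The uncalled Mog changed sign, to 0.10 without both P9 libraries that lacked Sim1 counts, and ranged from -0.22 to 0.10 with a library left out. The uncalled Grin2b ranged from -0.015 to 0.18. No paired analysis was possible because the labels carry no replicate numbers. Of the 160 listed rows, 46 passed the filter and 64 held no count in any of 24 libraries, so changes in most listed genes could not be tested; why those rows are at 0 was not tested.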
